A study of Chlorocebus sabaeus with 10 samples.

Results

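The mitochondrial carriers and the subunits of the protein import machinery were described in liver biopsies of vervet monkeys (Chlorocebus sabaeus), an Old World primate. The members are the genes of the deposited transcript table whose symbols begin with SLC25A, TOMM or TIMM followed by a digit. These were 61 of the 23352 gene symbols in the table, each represented by 1 of its 28078 transcripts: 44 carriers (SLC25A), 6 outer membrane import genes (TOMM) and 11 inner membrane import genes (TIMM). The animals were 10 females, described by the study as age-matched and kept on chow beforehand. The study's clinical measures give a higher mean age on HFr, a difference that did not pass its test. For 6 weeks, 5 received a high fructose (HFr) diet and the other 5 stayed on chow, and each animal gave 1 RNA-Seq library of polyadenylated liver RNA. No transgene, knockout or drug was part of the design, and the replicates are separate animals. The comparison asks how the liver's transcripts differ after a short exposure to fructose.

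The mitochondrial genome encodes only a few proteins, so nearly all others are made in the cytosol and imported. The TOM complex of the outer membrane receives these precursors, the TIM23 complex passes those with a presequence into the matrix, and small TIM chaperones escort carrier proteins to the TIM22 complex, which inserts them into the inner membrane. The SLC25 carriers are among the proteins imported that way, and in hepatocytes they move ADP and ATP, phosphate, acylcarnitines, amino acids for the urea cycle and cofactors across the inner membrane.

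Each library held between 2977282 and 4992505 estimated counts, of which 864571 to 2657103 lay on nuclear transcripts. Transcripts of the mitochondrial genome took 55.5% ± 11.8 of the counts on HFr and 55.4% ± 16.5 on chow (SD, n = 5 each, two-sided exact permutation test, p = 0.992). The tissue label was borne out by the hepatocyte markers, with ALB, the serum albumin gene, at 21647 to 45270 normalized counts in every animal. A normalized count (CPM) is the estimated count per 1000000 counts of the library after TMM scaling, in which a trimmed mean of log ratios sets the libraries to a common scale. The summed levels of 8 cell type marker lists overlapped between the diets. Their smallest exact permutation p was 0.437, with 0.804 as the smallest value after Benjamini-Hochberg adjustment over the 8 lists. Of the tested markers, 1 had an unadjusted p under 0.05, ACTA2 of the stellate cell and fibroblast list, which was lower on HFr. That list summed to 224 to 407 normalized counts on HFr and to 180 to 827 on chow, and its part in the values below was not tested. The skeletal muscle list summed to 3.01 to 12.1 on HFr and to 1.1 to 37.7 on chow. Of its 9 markers in the table, CKM, MB, MYH2 and MYH7 were at 0 in every animal, and the others had counts. In bulk tissue, fewer cells of a type and less RNA per cell cannot be told apart.

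Of the 61 members, 35 had enough counts to be tested: 26 carriers, 4 TOMM genes and 5 TIMM genes. With edgeR's quasi-likelihood test, 4 of these 35 had an unadjusted p under 0.05, the threshold that the study used. All 4 were higher on HFr: SLC25A20, SLC25A4, SLC25A5 and TOMM40L. None was lower at that threshold with edgeR, DESeq2 (3 members called, all higher) or limma (4, all higher). An equal-variance test per transcript, the form of test used by the study, called 3 higher and 1 lower, SLC25A32. Over the 7948 transcripts tested, 4.29% had such a p, 2.06% higher on HFr and 2.23% lower. No member passed after Benjamini-Hochberg adjustment over all tested transcripts, where each of the 35 had an adjusted p of 0.9996 (edgeR). The share of all transcripts that passed adjustment was 0.0%, and DESeq2 and limma also passed no member. No member was separated between the diets, that is, with every animal of 1 diet above every animal of the other, against 0.541% of all tested transcripts. The log2 fold change was above 0 for 23 of the 35 members and below 0 for 12, and it was above 0 for 49.8% of all tested transcripts. The median over the members was 0.06 (range -0.43 to 0.69), beside -0.00 over all tested transcripts. Without HFr replicate 2, 15 of 35 members were above 0 and the median was -0.0074. With all animals kept, 20 of 35 were above 0 with limma (median 0.02). The same number was above 0 with a term for the replicate number, the replicate block (median 0.03).

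**Figure D1:**
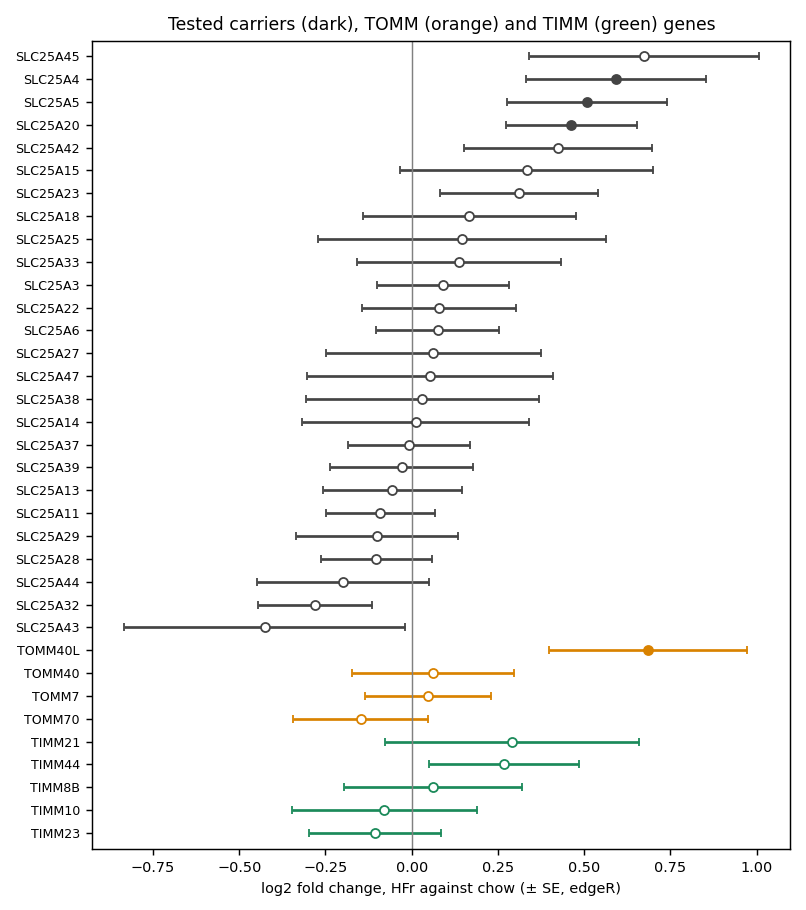
Log2 fold change of the 35 tested members, HFr against chow, with its standard error from the edgeR fit (5 animals per diet). Filled points have an unadjusted p under 0.05 (SLC25A20, SLC25A4, SLC25A5 and TOMM40L, all to the right of 0), and the values run from -0.43 for SLC25A43 to 0.69 for TOMM40L.

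By role, each of the 6 tested carriers of ADP, ATP or phosphate had a log2 fold change above 0 (median 0.23), and 2 of the 6 had an unadjusted p under 0.05. Without HFr replicate 2 this no longer held: SLC25A3 was at -0.10, SLC25A6 at -0.0090 and SLC25A25 at 0.0018, and neither SLC25A4 (edgeR unadjusted p = 0.106) nor SLC25A5 (edgeR unadjusted p = 0.162) kept a p under 0.05. The carriers of organic acids and acylcarnitines had 2 tested members, 1 of them with such a p (median 0.19). The medians were closer to 0 for the 7 amino acid carriers (0.03), the 6 carriers of cofactors and metals (-0.02), the 5 other carriers (0.05) and the 4 TOM members (0.06). Among the inner membrane members, the 3 tested translocase subunits had a median of 0.27 and the 2 tested small TIM chaperones one of -0.01. No amino acid, cofactor, other carrier or TIMM gene had an unadjusted p under 0.05, against 4.29% of all tested transcripts. In groups of so few members, a count of 0 is little different from that share.

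SLC25A20 (ENSCSAG00000015383, chr22:10261634-10300778 on the minus strand of ChlSab1.1) encodes the carnitine-acylcarnitine carrier, which brings fatty acids bound to carnitine into the matrix for beta-oxidation. Its normalized counts were 51.2, 72.4, 58.1, 54.9 and 42.1 in HFr replicates 1 to 5. In chow replicates 1 to 5 they were 33.1, 34.2, 44.9, 52.1 and 38.6. All 5 HFr animals were above the chow mean, and 3 were above every chow animal. The HFr mean was 55.8 ± 11.1 and the chow mean 40.6 ± 7.92 (SD, n = 5 each). The log2 fold change was 0.46 (SE 0.19, 95% interval 0.06 to 0.87, edgeR unadjusted p = 0.0277), with 84 to 323 counts per animal behind it. Leaving out HFr replicate 2, the highest animal, gave 0.35 (edgeR unadjusted p = 0.0868). Leaving out HFr replicate 3 gave 0.44 (edgeR unadjusted p = 0.0554). Without chow replicates 1, 2 or 5, each left out alone, the values were 0.40, 0.41 and 0.44, again with a p over 0.05. The oxoglutarate carrier SLC25A11 (chr16:4416259-4421162, minus strand), which exchanges oxoglutarate for malate in the malate-aspartate shuttle, is the other tested member of its group. Its normalized counts were 35.4, 44.4, 40.7, 44.2 and 32.8 on HFr and 34.5, 41.8, 45.3, 46.0 and 43.2 on chow. Its log2 fold change was -0.09 (SE 0.16, 95% interval -0.43 to 0.25, edgeR unadjusted p = 0.575), and the diets overlapped almost completely.

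**Figure D2:**
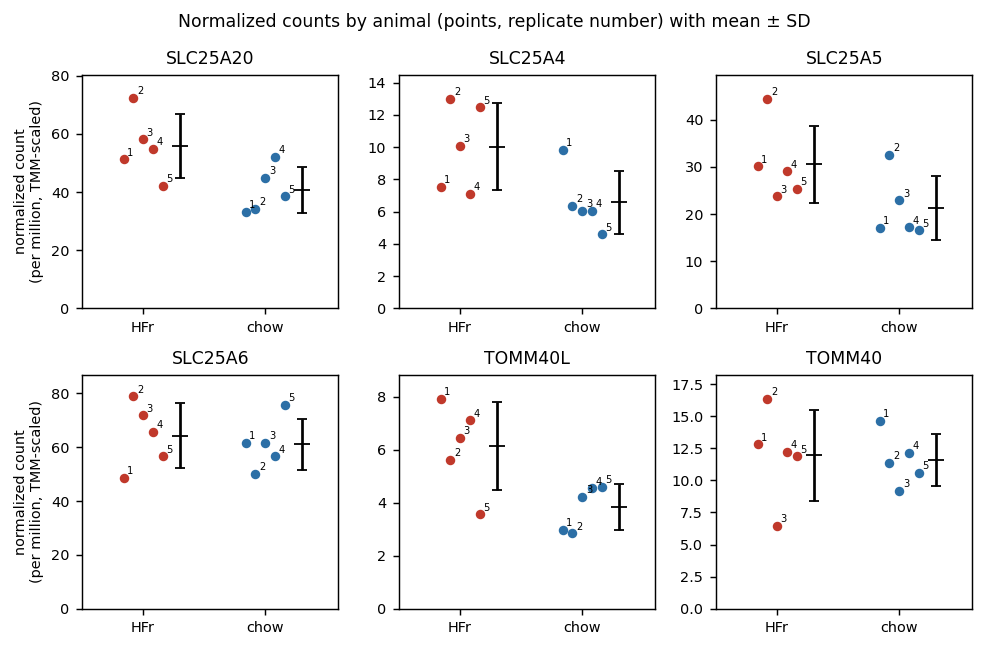
Normalized counts (CPM of the TMM-scaled library size) of 6 members in each of the 10 animals, numbered by replicate, with the mean ± SD of each diet. The diets overlap for all 6 members. For TOMM40L, 4 of the 5 HFr animals lie above every chow animal, and for TOMM40 and SLC25A6 1 each does.

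The ADP/ATP carriers exchange matrix ATP for cytosolic ADP, and 3 of the 4 genes of this family in the table were tested. Their coding sequences resemble each other and those of processed pseudogenes, and how the counting divided ambiguous reads among them was not tested. SLC25A4 (ENSCSAG00000002980, chr7:131102037-131111351, plus strand), the form known best from heart and skeletal muscle, had normalized counts of 7.54, 13.0, 10.1, 7.11 and 12.5 on HFr. On chow they were 9.83, 6.35, 6.05, 6.06 and 4.60. Chow replicate 1 was the only chow animal within the HFr range, and the other 4 were below every HFr animal. The means were 10.04 ± 2.72 (SD, n = 5) and 6.58 ± 1.94 (SD, n = 5), a log2 fold change of 0.59 (SE 0.26, 95% interval 0.03 to 1.15, edgeR unadjusted p = 0.0393). Each animal had 10 to 63 counts, so the counting error of a single value was large. The p was over 0.05 when any of HFr replicates 2, 3 and 5 or chow replicates 2, 3, 4 and 5 was left out. The log2 fold changes were then 0.48, 0.59 and 0.50 for the HFr animals and 0.57, 0.55, 0.56 and 0.50 for the chow animals. SLC25A4 is abundant in muscle. Of the 9 muscle markers in the table, CKM, MB, MYH2 and MYH7 were at 0 in every animal, and the others had counts. The most abundant was DES (up to 34.5 normalized counts), a gene that is not specific to skeletal muscle. The part of muscle RNA in this value was not tested.

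SLC25A5 (ENSCSAG00000018358, bases 938752 to 941359 of an unplaced scaffold, plus strand), the ADP/ATP carrier of proliferating cells, had normalized counts of 30.1, 44.4, 23.8, 29.1 and 25.3 on HFr. On chow they were 17.1, 32.6, 22.9, 17.2 and 16.5. Chow replicate 2 was the single chow animal within the HFr range, and the highest value was again that of HFr replicate 2. The means were 30.6 ± 8.17 (SD, n = 5) and 21.3 ± 6.85 (SD, n = 5), a log2 fold change of 0.51 (SE 0.23, 95% interval 0.01 to 1.01, edgeR unadjusted p = 0.0463), with 34 to 198 counts per animal. Without HFr replicate 2 it was 0.33 (edgeR unadjusted p = 0.162). The p was also over 0.05 without HFr replicates 1 or 4 (0.51 and 0.52) and without chow replicates 1, 3, 4 or 5 (0.43, 0.53, 0.44 and 0.43). The unadjusted p was 0.0538 with DESeq2 and 0.0600 with an equal-variance test per transcript, the form of test used by the study.

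SLC25A6, the ubiquitous ADP/ATP carrier (bases 99135 to 105656 of another unplaced scaffold, minus strand), overlapped between the diets, as SLC25A4 and SLC25A5 did. It had normalized counts of 48.6, 79.0, 71.8, 65.8 and 56.6 on HFr and of 61.7, 50.2, 61.6, 56.6 and 75.8 on chow. The log2 fold change was 0.08 (SE 0.18, 95% interval -0.31 to 0.46, edgeR unadjusted p = 0.680). Summed over the 3 carriers, the normalized counts were 86.3, 136, 106, 102 and 94.4 on HFr and 88.7, 89.1, 90.6, 79.8 and 97.0 on chow. These sums averaged 105 ± 19.1 (SD, n = 5) and 89.0 ± 6.12 (SD, n = 5), with the HFr animals the more spread of the 2 diets.

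Within the family, SLC25A6 gave the largest share of the counts in every animal. Its share was 61.3% ± 4.80 (SD, n = 5) on HFr and 68.6% ± 7.92 (SD, n = 5) on chow (exact permutation p = 0.111). SLC25A5 gave 29.1% ± 4.87 and 24.0% ± 7.69 (n = 5 each, exact permutation p = 0.238), and SLC25A4 gave 9.60% ± 2.27 and 7.44% ± 2.31 (n = 5 each, exact permutation p = 0.183). These are shares of counts, not of molecules, since the counts are not per length. Shares of 7 kinds were compared, and adjusted over them the smallest p was 0.296, whereas the smallest p that 5 against 5 animals allow is 0.00794.

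**Figure D3:**
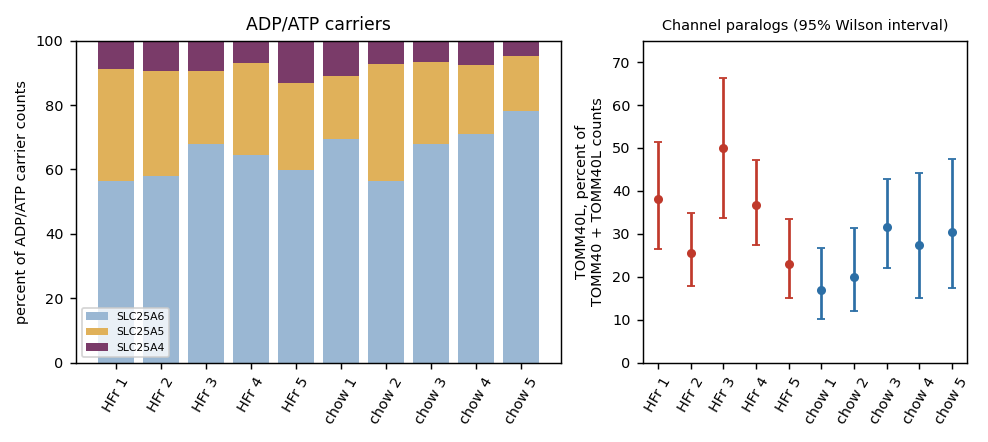
Left, percent of the ADP/ATP carrier counts that fell on SLC25A6, SLC25A5 and SLC25A4 in each of the 10 animals. Right, TOMM40L as a percent of the TOMM40 and TOMM40L counts with its 95% Wilson interval, where the HFr points run from 23.1% to 50% and the chow points from 16.9% to 31.5%.

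The remaining energy carriers, like the others, overlapped between the diets. The phosphate carrier SLC25A3 (chr11:93892630-93899754, plus strand), which supplies the phosphate for ATP synthesis, had normalized counts of 30.1, 50.5, 32.3, 25.5 and 30.9 on HFr and of 34.0, 33.5, 34.7, 28.8 and 27.6 on chow. The log2 fold change was 0.09 (SE 0.19, edgeR unadjusted p = 0.646), and it was -0.10 without HFr replicate 2. The calcium-regulated ATP-Mg/phosphate carrier SLC25A25 (chr12:10017755-10035476, minus strand) was the most variable of the deeply counted members. Its normalized counts were 332, 255, 211, 57.5 and 71.4 on HFr and 172, 130, 117, 158 and 260 on chow, a 5.76-fold range over the 10 animals. HFr animals gave 3 of the 4 highest values and also the lowest pair. The means were 185 ± 119 (SD, n = 5) and 167 ± 56.3 (SD, n = 5), a log2 fold change of 0.15 (SE 0.42, 95% interval -0.75 to 1.04, edgeR unadjusted p = 0.731) that turned below 0 in fits on the log scale. Its paralog SLC25A23 had a log2 fold change of 0.31 (SE 0.23, edgeR unadjusted p = 0.195).

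Of the TOM members, TOMM40L had the largest log2 fold change of the 35 tested members. TOMM40 forms the channel through which precursors cross the outer membrane, and TOMM40L is its less well known paralog. TOMM40L (ENSCSAG00000002674, chr20:2751114-2756658, minus strand) had normalized counts of 7.91, 5.61, 6.45, 7.11 and 3.56 on HFr and of 2.97, 2.85, 4.22, 4.55 and 4.60 on chow. The exception on HFr was replicate 5, and the other 4 HFr animals were above every chow animal. The means were 6.13 ± 1.67 (SD, n = 5) and 3.84 ± 0.860 (SD, n = 5), a log2 fold change of 0.69 (SE 0.29, 95% interval 0.07 to 1.30, edgeR unadjusted p = 0.0309). These values rest on 9 to 32 counts per animal. The p was over 0.05 when any of HFr replicates 1, 3 and 4 or chow replicates 1 and 2 was left out. The log2 fold changes were then 0.58, 0.66, 0.61, 0.60 and 0.59.

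The whole 5545 bases of TOMM40L lie inside the annotated span of NR1I3, which encodes the constitutive androstane receptor, on the opposite strand (chr20:2744908-2756658, plus strand). NR1I3 held 1917 counts over the 10 animals and TOMM40L 180. The library kit keeps the strand, but whether the counting used it was not given in the sources used here, so reads of NR1I3 within TOMM40L cannot be set aside. NR1I3 itself had means of 49.1 ± 12.1 and 51.5 ± 7.53 normalized counts (SD, n = 5 each) on HFr and chow (log2 fold change -0.07, SE 0.19, edgeR unadjusted p = 0.731).

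TOMM40 (chr6:38363176-38375218, plus strand) had normalized counts of 12.8, 16.4, 6.45, 12.2 and 11.9 on HFr and of 14.6, 11.4, 9.17, 12.1 and 10.6 on chow. The resulting log2 fold change was 0.06 (SE 0.23, 95% interval -0.44 to 0.57, edgeR unadjusted p = 0.795). TOMM40L made up 38.2%, 25.5%, 50%, 36.8% and 23.1% of the reads of the pair in HFr replicates 1 to 5. In the chow animals it made up 16.9%, 20.0%, 31.5%, 27.3% and 30.3%. The mean shares were 34.7% ± 10.8 (SD, n = 5) and 25.2% ± 6.45 (SD, n = 5), which overlapped and did not pass the test (exact permutation p = 0.127, adjusted 0.296 over the 7 shares). The intervals drawn for each animal cover counting error only.

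TOMM70 (chr22:80477872-80516670, plus strand), the receptor that takes up carrier precursors, had normalized counts of 54.6, 64.1, 54.9, 50.7 and 65.1 on HFr and of 48.7, 66.4, 92.8, 49.0 and 63.0 on chow. The highest value was that of chow replicate 3, and all HFr animals lay within the chow range. Its log2 fold change was -0.15 (SE 0.20, 95% interval -0.57 to 0.27, edgeR unadjusted p = 0.463). TOMM7 (chr21:35485685-35497325, plus strand), a small subunit that modulates the assembly of the complex, had 38.4, 39.7, 39.5, 33.8 and 22.4 on HFr and 33.8, 32.9, 37.2, 27.3 and 35.8 on chow. Of its HFr animals, 3 were above every chow animal and replicate 5 was the lowest of all 10, and the log2 fold change was 0.05 (SE 0.18, edgeR unadjusted p = 0.797).

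None of the 5 tested TIMM genes had an unadjusted p under 0.05, against 4.29% of all tested transcripts. TIMM23 (chr9:41837582-41868987, minus strand), the channel of the TIM23 complex, had normalized counts of 18.8, 21.8, 21.8, 13.8 and 14.0 on HFr and of 16.2, 17.96, 23.7, 20.2 and 18.4 on chow (log2 fold change -0.11, SE 0.19, 95% interval -0.52 to 0.30, edgeR unadjusted p = 0.584). TIMM44 (chr6:7377669-7396652, minus strand) tethers the import motor to that channel. It had 24.9, 18.6, 14.9, 25.8 and 17.8 on HFr and 12.1, 23.4, 14.7, 18.7 and 16.1 on chow. Of its HFr animals, 4 were above the chow mean, with a log2 fold change of 0.27 (SE 0.22, 95% interval -0.20 to 0.73, edgeR unadjusted p = 0.238). TIMM21, the remaining tested subunit of the complex, had 0.29 (SE 0.37, edgeR unadjusted p = 0.444). HFr replicate 2 was at 13.7 normalized counts and the other HFr animals at 3.77 to 7.32, and without it the log2 fold change was -0.14.

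The small TIM chaperones keep carrier precursors soluble in the intermembrane space. TIMM10 (chr1:15701469-15703900, plus strand) had normalized counts of 5.65, 7.40, 5.24, 5.55 and 4.15 on HFr and of 8.45, 4.60, 4.95, 7.08 and 4.60 on chow. TIMM8B (chr1:103442144-103443611, minus strand) had 5.65, 8.97, 6.45, 4.44 and 7.12 on HFr and 4.57, 6.57, 6.24, 8.59 and 5.97 on chow. Neither separated the diets, with log2 fold changes of -0.08 (SE 0.27, edgeR unadjusted p = 0.771) for TIMM10 and 0.06 (SE 0.26, edgeR unadjusted p = 0.814) for TIMM8B. TIMM8A, TIMM9 and TIMM13, also small TIM chaperones, were counted too thinly for the test. In sums over the 5 animals of a diet, TIMM8A had 30 counts on HFr and 24 on chow, TIMM9 had 31 and 25, and TIMM13 had 52 and 50.

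None of the 7 tested amino acid carriers had an unadjusted p under 0.05, against 4.29% of all tested transcripts. SLC25A13 (chr21:52729558-52930021, plus strand), the liver form of the aspartate-glutamate carrier that feeds aspartate to the urea cycle, had normalized counts of 161, 119, 85.5, 148 and 109 on HFr and of 106, 153, 146, 132 and 109 on chow. For SLC25A13 the log2 fold change was -0.06 (SE 0.20, 95% interval -0.49 to 0.38, edgeR unadjusted p = 0.786). Its paralog SLC25A12, the form of heart and brain, held 49 counts on HFr and 35 on chow in all and was not tested. SLC25A29 (chr24:78250796-78266490, minus strand), a carrier of basic amino acids, had 109, 101, 108, 196 and 87.4 on HFr and 146, 108, 95.7, 155 and 142 on chow. HFr replicate 4 stood above the rest, and 1 of the 5 HFr animals was above the chow mean (log2 fold change -0.10, SE 0.23, edgeR unadjusted p = 0.671). Without that animal it was -0.36 (edgeR unadjusted p = 0.0851). SLC25A15 (chr3:19140668-19160773, plus strand), the ornithine carrier of the urea cycle, had 7.91, 15.5, 6.05, 7.55 and 4.95 on HFr and 7.77, 7.23, 10.1, 2.53 and 4.14 on chow. Its log2 fold change was 0.33 (SE 0.37, 95% interval -0.45 to 1.12, edgeR unadjusted p = 0.379), and it was -0.02 without HFr replicate 2.

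Among the carriers of cofactors, SLC25A42 and SLC25A32 lay at the ends. SLC25A42 (chr6:17529312-17577093, plus strand), a coenzyme A carrier, had normalized counts of 91.6, 72.9, 56.5, 130 and 60.7 on HFr and of 38.6, 68.5, 53.5, 96.0 and 51.5 on chow. It was above the chow mean in 3 of 5 HFr animals (log2 fold change 0.42, SE 0.27, 95% interval -0.16 to 1.01, edgeR unadjusted p = 0.143). Without HFr replicate 4, the highest animal, it was 0.19, and without chow replicate 4 it was 0.63 (edgeR unadjusted p = 0.0343). Without the 3 animals with the fewest nuclear counts it was 0.73 (edgeR unadjusted p = 0.0365). SLC25A32 (chr8:98254852-98271514, minus strand), a carrier of folate or flavin adenine dinucleotide, had 15.8, 13.2, 10.9, 12.9 and 13.3 on HFr and 15.5, 18.2, 16.3, 15.7 and 14.2 on chow. It was below the chow mean in each of the 5 HFr animals, and it was the least variable tested member. The log2 fold change was -0.28 (SE 0.17, 95% interval -0.63 to 0.07, edgeR unadjusted p = 0.112). The equal-variance test per transcript gave an unadjusted p of 0.0260. The mitoferrins SLC25A28 and SLC25A37, which bring iron into the matrix, had log2 fold changes of -0.10 (SE 0.16) and -0.01 (SE 0.18), and the glutathione carrier SLC25A39 had -0.03 (SE 0.21).

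The other carriers held the extremes of the SLC25 family. SLC25A45 (chr1:8856977-8865358, plus strand) had normalized counts of 3.77, 5.83, 8.88, 6.89 and 9.30 on HFr and of 2.06, 5.26, 4.03, 7.08 and 4.14 on chow. It was above the chow mean in 4 of 5 HFr animals, with a log2 fold change of 0.67 (SE 0.33, 95% interval -0.04 to 1.39, edgeR unadjusted p = 0.0623). Without HFr replicate 1 it was 0.81 (edgeR unadjusted p = 0.0292) and without chow replicate 4 it was 0.84 (edgeR unadjusted p = 0.0287). At the other end, SLC25A43 had 3.77, 1.57, 2.02, 1.56 and 3.17 on HFr and 4.57, 2.85, 2.02, 5.56 and 1.38 on chow, and its log2 fold change was -0.43 (SE 0.41, 95% interval -1.30 to 0.45, edgeR unadjusted p = 0.313). SLC25A47 (chr24:78285593-78292773, plus strand), a carrier known for its restriction to the liver, had 9.80, 13.7, 4.03, 15.995 and 16.2 on HFr and 5.94, 19.1, 14.1, 11.1 and 7.81 on chow. Its log2 fold change was 0.05 (SE 0.36, 95% interval -0.71 to 0.82, edgeR unadjusted p = 0.885). The 12 tested members not given here by animal had log2 fold changes of -0.20 to 0.31, and the smallest p among them was 0.195.

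Of the 26 members that were not tested, 3 had no count in any animal: SLC25A31, the ADP/ATP carrier of the testis, SLC25A41 and TOMM20L. A count of 0 allows up to 3 counts per library, which is 0.550 to 1.52 normalized counts depending on the animal. The other 23 had 1 to 117 counts in total, and 12 of them fewer than 30. SLC25A51, the NAD carrier, had 14 counts on HFr and 4 on chow, and TIMM22, the channel that inserts the carriers, had 2 and 8. In a fit that kept every transcript with a count, the log2 fold changes were 1.70 (SE 0.92, edgeR unadjusted p = 0.0769) for SLC25A51 and -1.73 (SE 0.99, edgeR unadjusted p = 0.0946) for TIMM22. SLC25A52, a near-identical copy of SLC25A51, held 5 counts on each diet, and reads of the pair may have been split between them. SLC25A1, SLC25A10, TOMM20, TOMM22, TIMM17A and TIMM50 have no row under these symbols in the transcript table and were not analysed here.

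The members together took 0.267% to 0.357% of the nuclear counts of an animal. The mean share was 0.325% ± 0.0379 (SD, n = 5) on HFr and 0.310% ± 0.0241 (SD, n = 5) on chow, so the means were closer together than the animals of either diet. Relative to each member's own mean over the 10 animals, HFr replicate 2 was high for 23 of the 35 tested members, HFr replicate 4 and chow replicate 4 for 21 each, and chow replicate 5 for 10. The animals with the largest mitochondrial share of counts, chow replicates 4 and 5 and HFr replicate 3, were high for 21, 10 and 15.

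**Figure D4:**
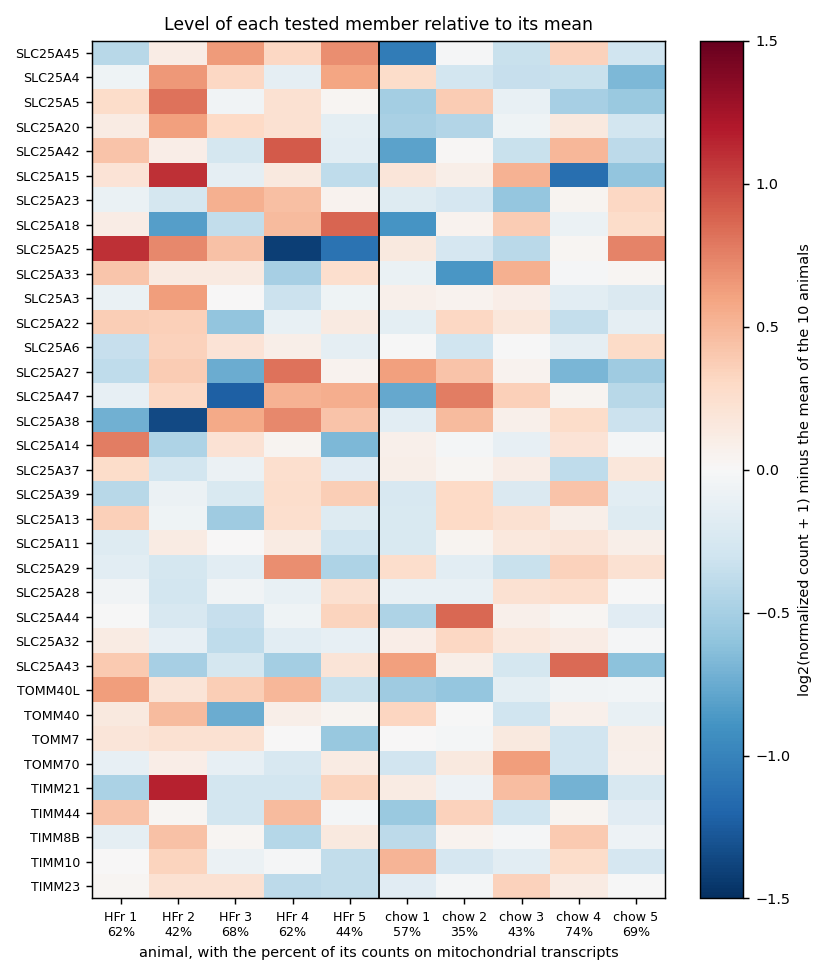
Level of each tested member in each animal as log2(normalized count + 1) minus the member's mean over the 10 animals, with the percent of counts on mitochondrial transcripts under each animal (35% to 74%). HFr replicate 2 is above the member's mean for 23 of 35 members and chow replicate 5 for 10, and the black line separates the diets.

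The spread between animals of 1 diet exceeded what counting alone gives for 34 of the 35 tested members. The coefficient of variation (CV) within a diet had a median of 25.8%, against 12.6% from counting, and for 18 members it was more than 2 times the counting value. The exception was SLC25A32, at 11.0% against 14.3%. SLC25A25 had a CV of 52.6% with 4.33% from counting. TIMM21 had a CV of 52.7%, SLC25A43 one of 50.1% and SLC25A15 one of 49.1%, each on far fewer counts. The steadiest members after SLC25A32 were SLC25A11, at 12.0%, and the mitoferrin SLC25A28, at 13.4%. Of the 4 members with an unadjusted p under 0.05, TOMM40L had a CV of 26.6% against 25.1% from counting, close together. SLC25A4 had 28.4% against 18.6%, SLC25A5 had 29.1% against 10.5%, and SLC25A20 had 20% against 7.96%.

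**Figure D5:**
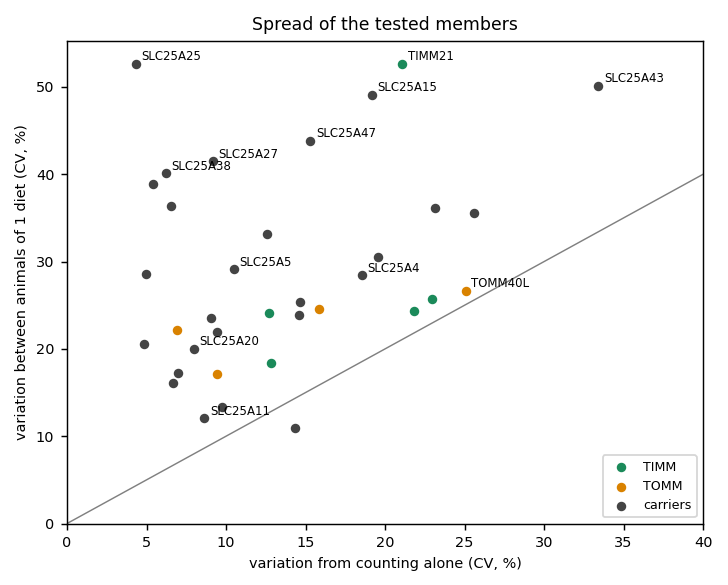
Coefficient of variation between animals of 1 diet (y axis, percent) against that from counting alone (x axis, percent) for the 35 tested members, with the line of equality. All but SLC25A32 lie above the line, and SLC25A25 is the point at 52.6% on the y axis and 4.33% on the x axis.

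Genes related to the members but with other names, among them the carriers UCP2 and MTCH1, were counted in the same fit. Of 34 such genes, 24 were in the table and 19 were tested, 9 with a log2 fold change above 0 and 10 below, with a median of -0.00. None had an unadjusted p under 0.05, against 4.29% of all transcripts. The smallest p values of the related genes were those of TIMMDC1 and GRPEL1. GRPEL1, the nucleotide exchange factor of the import motor, had means of 6.37 ± 1.97 and 4.26 ± 1.096 normalized counts (SD, n = 5 each) on HFr and chow (log2 fold change 0.55, SE 0.29, edgeR unadjusted p = 0.0777). TIMMDC1, an assembly factor of respiratory complex I, had 3.22 ± 1.30 (SD, n = 5) and 4.96 ± 1.66 (SD, n = 5), a log2 fold change of -0.63 (SE 0.33, edgeR unadjusted p = 0.0741). UCP2 had 0.39 (SE 0.33, edgeR unadjusted p = 0.257) and DNAJC19 had -0.34 (SE 0.23, edgeR unadjusted p = 0.166). HSPA9, the motor chaperone, had -0.10 (SE 0.21), the outer membrane pores VDAC2 and VDAC3 had -0.00 (SE 0.18) and 0.13 (SE 0.15), and the assembly factor SAMM50 had 0.20 (SE 0.16). The matrix chaperonin HSPD1 was at 96.1 normalized counts in chow replicate 3 and at 14.2 to 25.6 in the other chow animals, and the HFr animals lay between 23.5 and 35.2.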

How the data were processed

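Paired-end reads of 100 bases were aligned to ChlSab1.1 by the authors, who deposited estimated counts per Ensembl transcript (release 93), made by expectation-maximization in Partek and not normalized. The submitters' processing notes name CASAVA 1.8, FastQC, STAR 2.5.3a and Partek. The deposited normalized table was not used. Counts were rounded, filtered with filterByExpr (minimum count 10, minimum total 15) and compared between the diets in all 10 animals with edgeR 4.0.16 in R 4.3.3, using TMM and diet as the only term. P-values were adjusted over all 7948 tested transcripts. The standard error is the log2 fold change divided by the square root of F, and 95% intervals use the t distribution of the fit. The procedure was tested on simulated data. Single values were compared by two-sided exact permutation over 252 assignments. Alternatives used DESeq2 1.42.0, limma 3.58.1, other normalizations and filters, a mitochondrial covariate, a replicate block and each animal left out. A fit without the 3 shallowest animals was added after the data were seen.

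The members and lists were chosen with earlier results of these data known. Members named with values by animal were those with an unadjusted p under 0.05 or no overlap, the 3 with the highest mean in each class, and anchors of the roles. The other members were named where they were extremes. No rule was set for which of the related genes to describe. The descriptions of TIMM21, SLC25A23, SLC25A28, SLC25A37 and SLC25A39 and of the untested SLC25A51, SLC25A52, SLC25A31, SLC25A41 and TOMM20L were added after their values were seen. Printed coordinates count from 1 and include both ends, and the end is 1 base before the stop listed in the deposited table, which was taken as excluded.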

Additional observations from a re-analysis of the deposited data

Results flagged for a closer look

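Within each diet, 86 groups of 5 values were examined for an animal far from the others, and 3 were noted, all on HFr. Chance marks about 1 in 20 such groups. The ornithine carrier SLC25A15 was at 15.5 normalized counts in HFr replicate 2, with the other HFr animals at 4.95 to 7.91 (gap of 0.718 of the range). The phosphate carrier SLC25A3 was at 50.5 in the same animal, with the others at 25.5 to 32.3 (gap of 0.730). The basic amino acid carrier SLC25A29 was at 196 in HFr replicate 4, with the others at 87.4 to 109 (gap of 0.807). Without these animals the log2 fold changes were -0.024 for SLC25A15, -0.10 for SLC25A3 and -0.36 for SLC25A29.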

How the results depend on the processing

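Of the 4 members with an unadjusted p under 0.05, none changed direction under those of the 26 alternatives that gave it a value. These 4 were picked by that p in the same animals, so the kept direction is no separate evidence for them. SLC25A20 kept such a p under 20 of 26 (0.35 to 0.56), TOMM40L under 18 of the 25 that could give a value (0.54 to 0.84), SLC25A4 under 16 of 26 (0.45 to 0.79) and SLC25A5 under 15 of 26 (0.33 to 0.72). The count of members called was 0 when counts were scaled by library size only, 2 with a replicate block (SLC25A20 and SLC25A5) and 1 to 4 when an animal was left out. It was 3 with DESeq2, with at least 10 counts in every animal and without the 3 animals with the fewest nuclear counts, and 4 under the others. Some of these calls were of other genes: with the equal-variance test SLC25A32, lower on HFr, was called and SLC25A5 was not, and without the 3 animals SLC25A42 was called and SLC25A4 and SLC25A5 were not. Without chow replicate 4, SLC25A42 and SLC25A45 were called and SLC25A4 and SLC25A5 were not, and without HFr replicate 1, SLC25A45 was called and SLC25A5 and TOMM40L were not. The causes were not tested. Over all tested transcripts, the share with an unadjusted p under 0.05 was 1.55% with library size only and 3.41% with the replicate block. When an animal was left out, that share ran from 3.22% to 5.06%, against 4.29% in the main fit. The correlations of deviations between same-numbered animals ran from -0.29 to 0.10, which cannot settle whether the replicate numbers pair the animals. The labels name no pairing. After adjustment no member passed under any alternative, the smallest adjusted p being 0.838 (edgeR, every transcript with a count). The median over the members ran from -0.01 to 0.09.

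Directions turned for 22 of the 35 tested members, SLC25A15 (0.33) and TIMM21 (0.29) among them. SLC25A25 was at -0.11 with the equal-variance test and with limma at a pseudocount of 1, at -0.11 with limma at 0.1 and at -0.068 with the replicate block. Without the 3 animals with the fewest nuclear counts, TOMM7 was at -0.051 and SLC25A29 at 0.083. With 1 animal left out, the values ran from -0.18 to 0.37 for SLC25A25, -0.088 to 0.17 for TIMM8B, -0.078 to 0.20 for TOMM40, -0.017 to 0.17 for TOMM7, -0.024 to 0.56 for SLC25A15, -0.10 to 0.17 for SLC25A3, -0.0090 to 0.16 for SLC25A6, -0.17 to 0.044 for SLC25A13, -0.13 to 0.32 for SLC25A47, -0.21 to 0.10 for TIMM10, -0.23 to 0.027 for TOMM70, -0.14 to 0.49 for TIMM21, -0.33 to 0.086 for SLC25A44 and -0.079 to 0.34 for SLC25A18. The other 13 tested members kept their sign throughout. The number of members above 0 was 15 of 35 without HFr replicate 2 and 20 of 35 with limma, the replicate block or library size only, against 23 as reported. The depth limits the members with few counts, such as TOMM40L and SLC25A4.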
